A study of Ovis aries with 24 samples.

Results

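The 9 erythroid genes described here are ALAS2, GATA1, KLF1, EPOR, AHSP, SLC4A1, EPB42, HEMGN and ANK1, taken by symbol from the liver gene table of preterm lambs. All 9 were among its 27716 entries, and all 9 passed the filter on low counts that left 16824 genes to test. In the fetus the liver is a main site of red cell formation, where erythroid progenitors divide, mature around macrophages and leave as red cells. GATA1 and KLF1 are the transcription factors that switch on the erythroid programme, the hormone erythropoietin acts through its receptor EPOR, and ALAS2 starts heme synthesis. AHSP binds free alpha globin. SLC4A1, EPB42 and ANK1 build the anion exchanger complex that ties the red cell membrane to its skeleton, and HEMGN is a nuclear protein of blood cell precursors.

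Messenger RNA was sequenced from the liver and the periventricular white matter, the brain tissue beside the lateral ventricles, with 12 libraries of each. Each tissue had 3 groups of 4 lambs. Unventilated lambs were 127 or 128 days of gestation. Lambs of the surfactant group were ventilated and given poractant alfa, a porcine lung surfactant, into the trachea at 2.5 mL/kg, and lambs of the budesonide group were ventilated and given the same surfactant mixed with 0.25 mg/kg of the synthetic glucocorticoid budesonide. Ventilated lambs were 126 days old apart from animals 007 and 054, which were 127 days old, so gestational age differs between the unventilated and ventilated groups. Each liver came from a separate animal. Sex was mixed within groups: animals 057, 058, 007 and 054 were male, and the liver label of 060 gave none. These males were also the only liver donors of 127 days, so sex was tied to gestational age. Lambs 007 and 054 were the only males of their groups.

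Total counts (in units of 1000000, M) were 16.1 M to 23.2 M for the liver libraries and 14.9 M to 17.5 M for those of white matter, and 11 of 13 animals gave both tissues. Hepatocyte markers dominated the liver libraries as their label states: the 18 hepatocyte genes listed, led by AHSG and ALB, summed to between 222308 and 311703 counts per 1000000 (CPM, scaled for library composition). No marker found in the table for any cell type listed was at 0 in every liver library. In whole tissue, fewer erythroid cells and less RNA per erythroid cell cannot be told apart.

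The largest differences in the erythroid genes were between individual lambs. The 9 genes summed to 393 CPM in unventilated lamb 059 and to 2420 CPM in unventilated lamb 058. Over all 12 livers the sum ran from 393 CPM in lamb 059 to 3183 CPM in lamb 054 of the budesonide group. Lamb 059 had the lowest level of the 12 livers for 9 of 9 genes, and lamb 054 of the budesonide group had the highest for 8 of 9, with 058 the highest for ANK1. The order of animals within a group was also largely shared. Lamb 058 was highest of the unventilated lambs for 9 of 9 genes, 032 highest of the surfactant lambs for 9 of 9, and 007 lowest of the surfactant lambs for 8 of 9. In the values that follow, unventilated animals are given in the order 057, 058, 059 and 060, surfactant animals in the order 007, 032, 049 and 051, and budesonide animals in the order 031, 048, 050 and 054. Gene lengths were not given with the counts, so CPM values are compared between animals and never between genes.

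**Figure D1:**
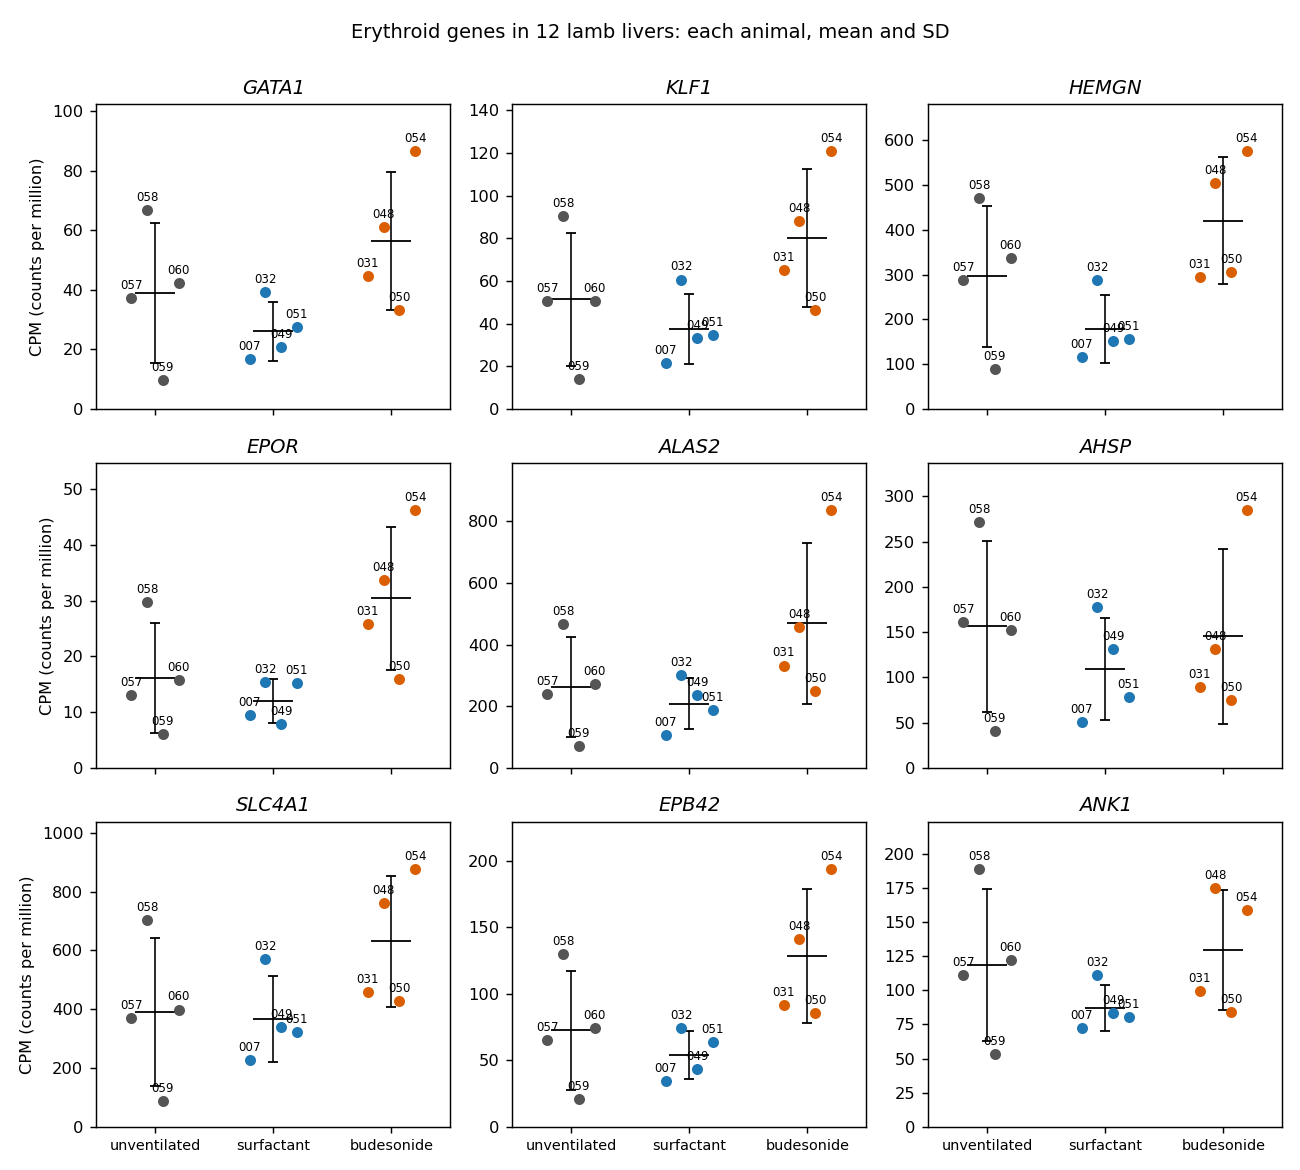
CPM of each of the 9 erythroid genes (linear axis from 0, one panel per gene) in 12 livers, by group; each point is 1 animal with its number, the short line is the group mean and the bar is 1 SD (n = 4). Lamb 059 is the lowest point in every panel, and lamb 054 is the highest in every panel except that of ANK1, where 058 is highest.

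The transcription factors come first. GATA1 stood at 37.2, 66.8, 9.64 and 42.2 CPM in the unventilated livers. It stood at 16.8, 39.3, 20.8 and 27.4 CPM in the surfactant livers. In the budesonide livers the GATA1 values were 44.8, 61.1, 33.4 and 86.7 CPM. The surfactant and budesonide ranges overlapped through 032 and 050, and the unventilated range ran across most of both. GATA1 means were 39 ± 23.4, 26.1 ± 9.85 and 56.5 ± 23.1 CPM in the 3 groups in that order (SD, n = 4).

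KLF1, which activates globin and membrane genes, had 50.6, 90.5, 14 and 50.5 CPM in unventilated livers. Surfactant livers had 21.5, 60.7, 33.4 and 34.5 CPM of KLF1. Budesonide livers had 65.2, 88.2, 46.3 and 121 CPM. As for GATA1, only 032 among the surfactant lambs reached the budesonide range, and it did so above 050 alone. HEMGN was at 288, 470, 89.6 and 337 CPM without ventilation. With surfactant it was at 117, 288, 152 and 157 CPM, and with budesonide at 294, 504, 306 and 576 CPM. The lowest budesonide liver, 031, lay just above the highest surfactant liver, 032, so these HEMGN groups did not overlap, whereas the unventilated livers overlapped both.

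EPOR, the receptor through which erythropoietin keeps erythroid progenitors alive, read 13, 29.7, 6 and 15.8 CPM in unventilated livers. Surfactant livers read 9.51, 15.4, 7.83 and 15.2 CPM. Budesonide livers read 25.8, 33.7, 15.9 and 46.3 CPM. All 4 budesonide livers were above all 4 surfactant livers, although 050 exceeded 032 by little. Mean EPOR was 16.1 ± 9.93, 12 ± 3.89 and 30.4 ± 12.8 CPM in the unventilated, surfactant and budesonide groups (SD, n = 4).

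ALAS2, the erythroid enzyme of the first step of heme synthesis, measured 239, 467, 70.8 and 271 CPM in unventilated livers. It measured 106, 302, 237 and 188 CPM in surfactant livers and 332, 456, 249 and 837 CPM in budesonide livers. Lamb 050 was the one budesonide animal inside the surfactant range, and 054 stood above all others, with 058 and 048 next. AHSP, the alpha globin chaperone, measured 161, 272, 40.3 and 152 CPM in unventilated livers. Surfactant livers had 51.1, 178, 131 and 78.2 CPM of AHSP, and budesonide livers 89.1, 131, 75.4 and 285 CPM. Here 3 of 4 budesonide livers lay inside the surfactant range and only 054 above it. The AHSP means, 156 ± 94.7, 110 ± 56.5 and 145 ± 96.1 CPM (SD, n = 4), differed by less than the SD of any of the groups.

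Of the membrane genes, SLC4A1, the band 3 anion exchanger, gave 370, 705, 88.9 and 399 CPM in unventilated livers. Surfactant livers gave 228, 572, 338 and 324 CPM of SLC4A1. Budesonide livers gave 457, 760, 429 and 878 CPM. Surfactant lamb 032 exceeded 2 budesonide lambs, 031 and 050. EPB42, the protein 4.2 that binds band 3 to ankyrin, gave 65.3, 130, 21.1 and 74.6 CPM in unventilated livers. With surfactant EPB42 was at 34.6, 74.5, 43.6 and 63.8 CPM, and with budesonide at 91.7, 141, 85.7 and 194 CPM. Its budesonide and surfactant groups did not overlap, and the unventilated lambs again spanned both. ANK1, erythroid ankyrin, gave 111, 189, 53 and 122 CPM in unventilated livers. Its surfactant values were 72.1, 111, 83.6 and 80.1 CPM and its budesonide values 99.8, 175, 84.2 and 159 CPM. For ANK1 the highest surfactant lamb lay between the 2 lower and 2 higher budesonide lambs.

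Between budesonide and surfactant, whose treatments differ by the glucocorticoid, the fitted change was positive for 9 of 9 genes, with a median log2 change of 1.12 against -0.01 for all genes tested. By edgeR's quasi-likelihood test with Benjamini-Hochberg adjustment over all genes, 0 of 9 passed an adjusted p of 0.05, where 11.9% of all genes passed. At an unadjusted p under 0.05 the count was 6 of 9, against 29.8% of all genes, and DESeq2 called 3 of 9 against 17.1%. The same 3, EPOR, EPB42 and HEMGN, were those whose groups did not overlap, which held for 14.4% of all genes. Since the 9 genes moved together from lamb to lamb, the 9 equal signs are not 9 independent observations.

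EPOR had the largest of these changes, 1.34 ± 0.44 on the log2 scale (SE), with an edgeR adjusted p of 0.0636 and a ratio of group means of 2.54. EPB42 followed at 1.24 ± 0.45 (edgeR adjusted p = 0.0886) and HEMGN at 1.23 ± 0.43 (edgeR adjusted p = 0.0801). ALAS2, GATA1 and KLF1 had changes of 1.17 ± 0.51, 1.12 ± 0.47 and 1.09 ± 0.47, with edgeR adjusted p-values of 0.147, 0.135 and 0.144. The membrane genes SLC4A1 and ANK1 had smaller fitted changes, 0.79 ± 0.48 and 0.58 ± 0.33, with edgeR adjusted p-values of 0.294 and 0.267. AHSP had the smallest, 0.40 ± 0.55 (edgeR adjusted p = 0.655). Without lamb 054 the AHSP change was -0.16, so that 8 of 9 were positive, and that of ALAS2 was 0.73. The call depended on single libraries. Without unventilated lamb 059, which enters this comparison only through the shared estimate of spread, EPOR, EPB42 and HEMGN passed, with edgeR adjusted p-values of 0.0364, 0.0345 and 0.0278 (11.1% of all genes passed). EPOR alone passed without 058 (edgeR adjusted p = 0.0422) and without 050 (edgeR adjusted p = 0.0495), where 10.2% and 8.13% of all genes passed.

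**Figure D2:**
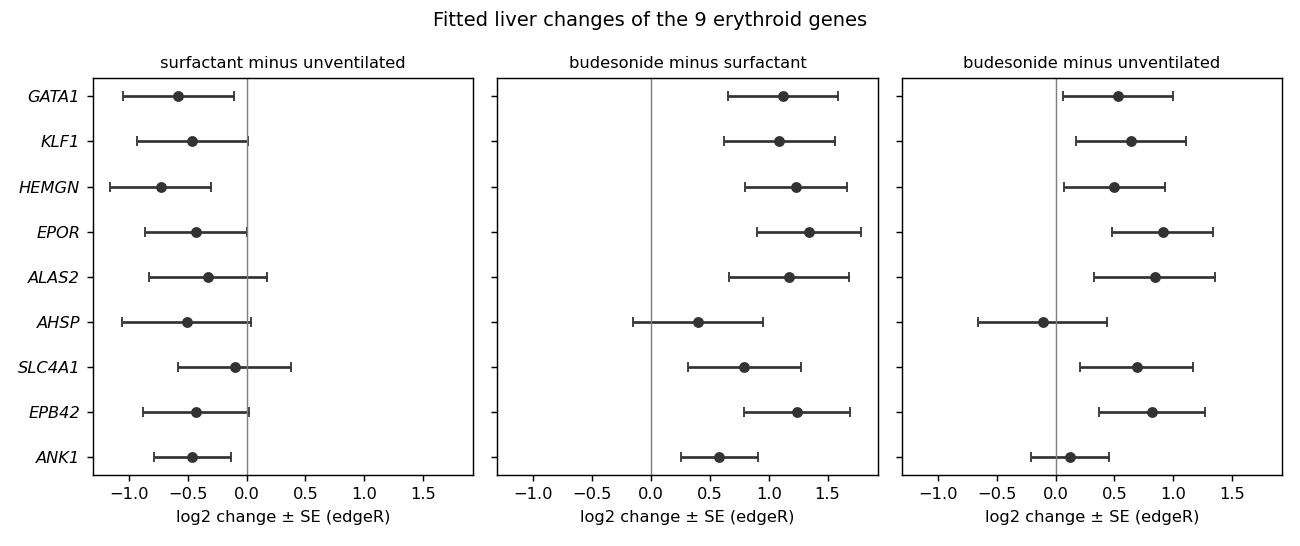
Fitted log2 change (horizontal axis) of each of the 9 erythroid genes in the liver for 3 comparisons; points are edgeR estimates and bars 1 SE. The budesonide minus surfactant changes run from 0.40 (AHSP) to 1.34 (EPOR), while the surfactant minus unventilated changes run from -0.73 (HEMGN) to -0.10 (SLC4A1).

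Ventilation with surfactant, set against no ventilation, came with lower fitted values for 9 of 9 genes, with a median log2 change of -0.46 against -0.02 for all genes tested. By edgeR 0 of 9 passed, against 41.1% of all genes, 0 of 9 had an unadjusted p under 0.05 against 50.3%, and DESeq2 called 0 against 38.2%. The groups overlapped for all 9 genes, where those of 37.4% of all genes did not. HEMGN had the most negative change, -0.73 with an edgeR adjusted p of 0.187, and SLC4A1 the least, -0.10 with an edgeR adjusted p of 0.89. Levels in the unventilated group differed 3.57-fold (ANK1) to 7.93-fold (SLC4A1) between its highest and lowest lamb. Leaving out lamb 059 gave HEMGN a change of -1.04 ± 0.33 that passed (edgeR adjusted p = 0.0294, where 35% of all genes passed). Leaving out lamb 058 instead turned the fitted sign of ALAS2, EPOR, SLC4A1 and EPB42, to 0.10, 0.04, 0.35 and 0.01.

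Between budesonide and unventilated lambs, 8 of 9 fitted changes were positive and the median was 0.64. None of 9 passed by edgeR, where 47% of all genes did, none had an unadjusted p under 0.05 against 54.1%, and DESeq2 called 0 against 42.6%. Again the groups overlapped for all 9 genes, where those of 48.8% of all genes did not. EPOR had the largest change, 0.91 (edgeR adjusted p = 0.0993), and AHSP the one negative value, -0.11 (edgeR adjusted p = 0.888). AHSP turned positive under 4 of 18 alternatives (without 058, 031 or 050, and with sex as a covariate), and ANK1, at 0.12, turned negative under 3 (without 059 or 048, and with gestational age as a covariate). Without lamb 058, EPOR at 1.39 ± 0.41 and EPB42 at 1.26 ± 0.44 passed, with edgeR adjusted p-values of 0.0183 and 0.0376 (42.3% of all genes passed). These comparisons share groups, so they are not independent of each other.

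Lamb to lamb spread of the erythroid genes was above that of most genes. Within groups the SD of log2 CPM was 0.55 for ANK1, 0.72 for EPOR, 0.74 for HEMGN, 0.77 for EPB42 and from 0.82 to 0.95 for the other 5, with AHSP the highest. The median of the 9 was 0.82, against 0.36 for all genes tested, and between 76.4% (ANK1) and 95.5% (AHSP) of all genes had a smaller SD. Most of this spread was common to the 9 genes. When each was expressed relative to the mean of the other 8 in the same liver, the SD fell to between 0.10 (KLF1) and 0.35 (AHSP), with a median of 0.16. The 36 pairs of genes had Pearson correlations between 0.81 and 0.99 (median 0.95) over 12 livers after group means were removed. Without lambs 054 and 059, the pairs' correlations ran from 0.52 to 0.98 with a median of 0.89. These correlations are a description, since the genes share libraries and depth.

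Relative to the other 8 genes, the balance within the erythroid set could be read with the shared spread removed. The measure was chosen after the values were seen and carries no test. By its construction the 9 differences between 2 groups sum to 0, so a fall of some genes is a rise of others, and the genes are not separate results. AHSP lay 0.64 ± 0.15 log2 units above the mean of the others in unventilated livers, 0.51 ± 0.47 above it in surfactant livers and at -0.18 ± 0.35 in budesonide livers (SD, n = 4). Every budesonide liver was below every unventilated liver, the highest at 0.35 (lamb 054) and the lowest unventilated at 0.47. The surfactant livers were spread over 0.12 to 1.06, and overlapped both. ANK1 also had no overlap, with 0.36 ± 0.37 in unventilated and -0.21 ± 0.28 in budesonide livers. With the opposite sign, EPB42 lay at -0.58 ± 0.05 in unventilated and -0.24 ± 0.10 in budesonide livers and ALAS2 at 1.48 ± 0.08 and 1.78 ± 0.22, again with no overlap. This makes 4 of 9 genes whose relative levels did not overlap between budesonide and unventilated livers, against 15% of all genes measured against the same 9. That share is not a like background. Taking off the erythroid mean removes shared spread from the 9 and adds it to genes that do not follow them.

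In surfactant livers the genes that stood apart from the unventilated ones were others. SLC4A1 had a relative level of 2.55 ± 0.09 with surfactant and 2.07 ± 0.22 without ventilation, and HEMGN one of 1.39 ± 0.13 and 1.74 ± 0.13 (SD, n = 4). Both had groups that did not overlap, 2 of 9 genes against 5.49% of all genes. Between budesonide and surfactant livers 0 of 9 relative levels were free of overlap, where 24% of all genes were. The limit given above holds for these shares of all genes too. GATA1 and KLF1 kept the closest balance, with relative levels that differed by at most 0.14 between any groups.

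**Figure D3:**
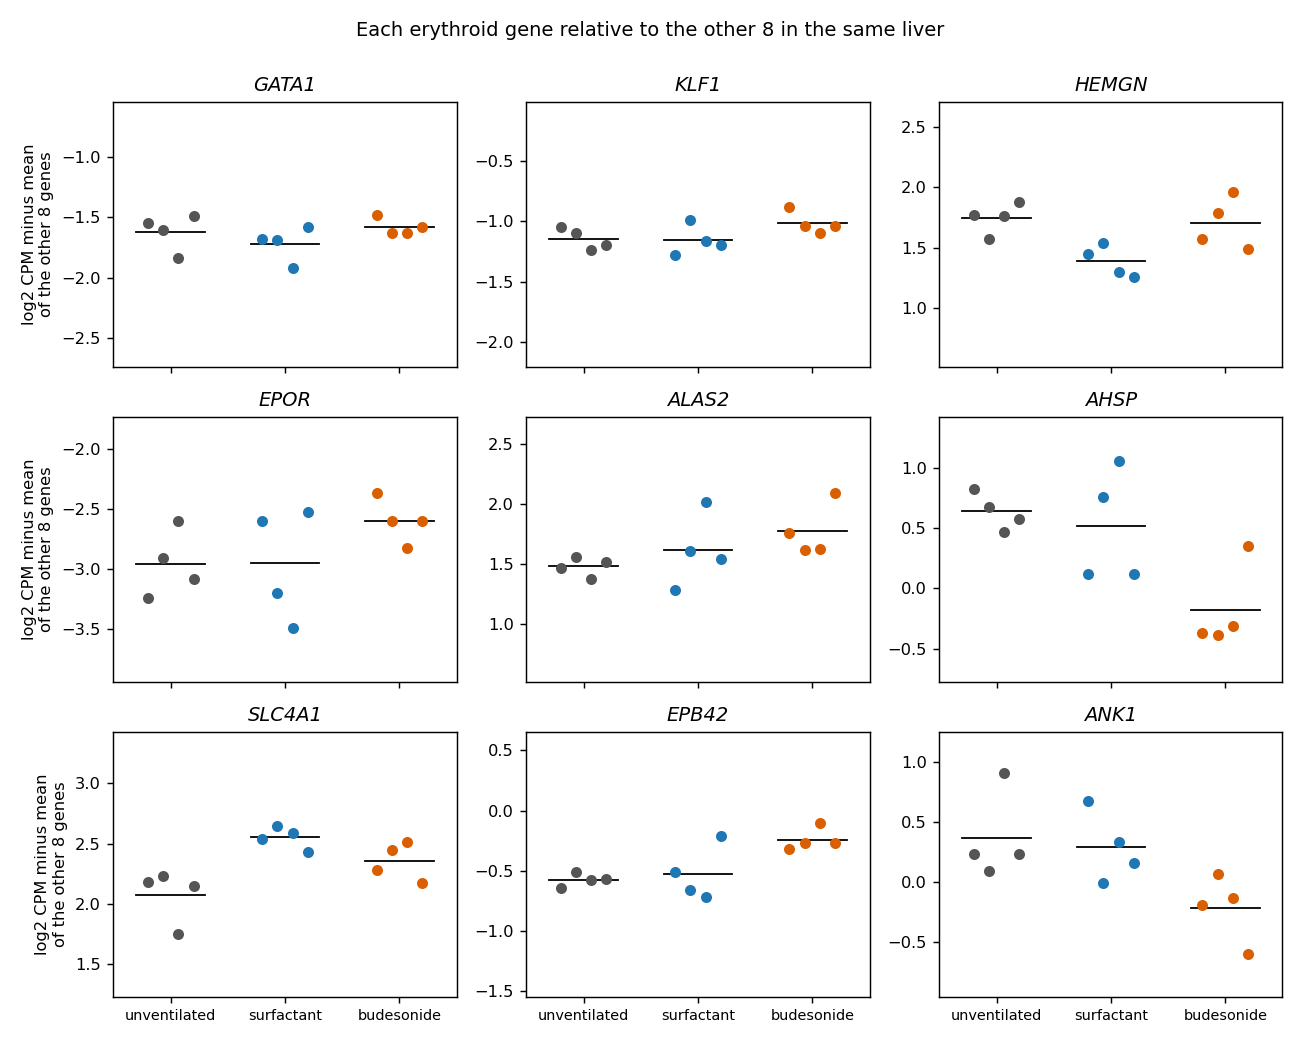
Level of each erythroid gene relative to the other 8 (log2 CPM minus their mean in the same liver, vertical axis, a span of equal size in every panel) in 12 livers by group; points are animals and lines are group means. AHSP averages 0.64 in unventilated and -0.18 in budesonide livers, whereas GATA1 and KLF1 keep nearly level means.

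Of 12094 other named genes with a mean of at least 1 CPM, 247 had a correlation over 0.9 with the mean of the 9 over the 12 livers after removal of group means. The 12 highest, from 0.992 to 0.983, were FAM78A, NCAPG2, PLK1, E2F2, ENDOD1, DMTN, KIF15, E2F1, MCM2, ACSL6, AURKB and EHBP1L1. Of these, PLK1, MCM2 and AURKB were in the proliferation list, E2F2 in that of erythroid transcription factors and DMTN in that of the membrane. PLK1, AURKB, KIF15 and NCAPG2 act in mitosis, MCM2 belongs to the helicase of DNA replication, E2F1 and E2F2 are cell cycle transcription factors, and DMTN is dematin of the red cell skeleton. E2F2, for example, averaged 106 CPM in unventilated, 91.2 CPM in surfactant and 218 CPM in budesonide livers, with 35.5 CPM in the lowest unventilated liver and 375 CPM in the highest budesonide liver. Its budesonide minus surfactant change, 1.26 on the log2 scale, was the largest of the 12. The others ran from 0.19 (EHBP1L1) to 1.09 (ACSL6). By edgeR none of the 12 passed in any comparison.

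The proliferation list, which includes MKI67 and RRM2 and holds PLK1, MCM2 and AURKB, followed the erythroid genes less closely than those 12, which were chosen for it. All 24 of its genes had a correlation over 0.5 with the erythroid mean, with a median of 0.94 against -0.08 for all genes, and the list summed to 428 CPM in lamb 059 and 1713 CPM in lamb 058. Median correlations were 0.90 for 18 further membrane genes, and 0.85 for each of the lists of 14 heme synthesis genes, 16 transcription factors and 21 late erythroid genes. HBM and HBQ1, globin genes of the alpha cluster that were tested, had 0.98 and 0.89, and the adult and fetal beta globins were not analysed here. The 18 hepatocyte genes had a median of -0.54, and their sum was 287757 CPM in lamb 059 and 222665 CPM in lamb 058. The 16 genes of macrophages, which include those of erythroblastic islands, had a median of 0.04 and the 12 of blood stem and progenitor cells -0.32, although CD34 in that list reached 0.88. Summed macrophage markers lay between 1154 and 1379 CPM in unventilated, 1369 and 1663 CPM in surfactant and 1248 and 1815 CPM in budesonide livers. Of these 16 macrophage genes, 3 were higher and 7 lower with budesonide than without ventilation, where 23.3% of all genes were higher and 23.7% lower. With surfactant against no ventilation 3 were higher and 2 lower (21.6% and 19.5% of all genes), and with budesonide against surfactant 0 were higher and 3 lower (4.01% and 7.85%). The part of these other cell types in the erythroid levels was not tested.

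**Figure D4:**
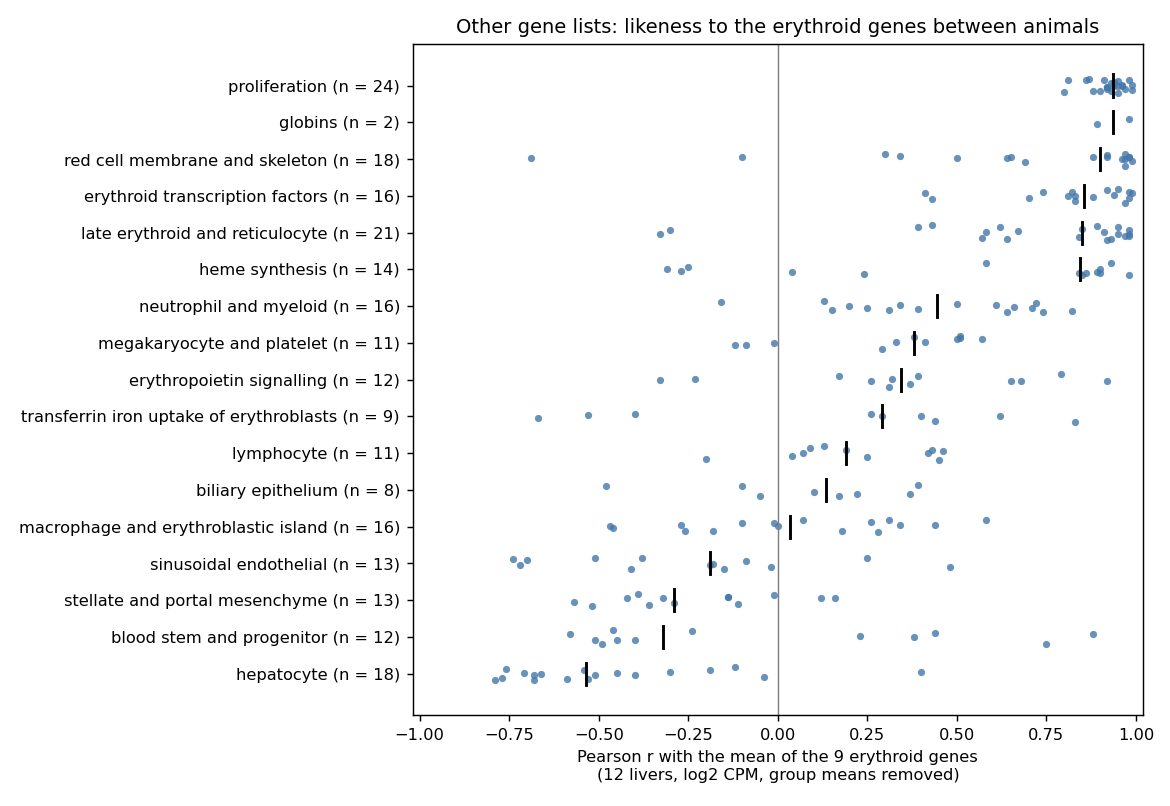
Pearson correlation (horizontal axis) of each tested gene of 17 lists with the mean of the 9 erythroid genes over 12 livers, with group means removed; each point is a gene and the black bar is the list's median. The proliferation genes lie at 0.80 to 0.99, while the hepatocyte genes have a median of -0.54.

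Other genes of the erythroid pathway passed the test where the 9 did not, and many of these followed the erythroid set only weakly from lamb to lamb. In the heme synthesis list 4 of 14 were lower and 0 higher with surfactant than without ventilation, where 19.5% of all genes were lower and 21.6% higher. ALAD, the second enzyme of the path, fell from 350 to 129 CPM, a log2 change of -1.44 ± 0.34 (edgeR adjusted p = 0.00525), and ALAS1, the housekeeping counterpart of ALAS2, from 39 to 15.3 CPM (-1.35 ± 0.37, edgeR adjusted p = 0.0117). Both are also hepatocyte enzymes, their correlations with the erythroid mean were -0.31 and -0.27, and both calls ended with gestational age as a covariate. Unventilated and ventilated lambs shared only the age of 127 days, in 057 and 058 against 007 and 054. A call between them that ended with this covariate, here or below, therefore does not single out a gene. With budesonide against surfactant 3 of the 14 were higher and 0 lower, where 4.01% of all genes were higher and 7.85% lower. FLVCR1, a transporter known for heme export, rose from 4.24 to 8.69 CPM (1.03 ± 0.29, edgeR adjusted p = 0.0358). SLC25A38, the mitochondrial glycine carrier, rose from 9.54 to 16.4 CPM (0.78 ± 0.19, edgeR adjusted p = 0.0214). UROD rose from 35.3 to 65.9 CPM (0.90 ± 0.27, edgeR adjusted p = 0.0458), and was the one of these 3 that followed the erythroid set, with a correlation of 0.86. Each of the 3 calls was lost when the 2 groups were fitted alone and on leaving out any of several single lambs (4 of them for SLC25A38, 6 for FLVCR1 and 9 for UROD).

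Of the 16 erythroid transcription factors other than GATA1 and KLF1, 1 was higher and 3 lower with surfactant than without ventilation, shares no larger than the 21.6% and 19.5% of all genes. LMO2, a partner in the TAL1 complex that works with GATA1, fell from 48.3 to 19.4 CPM (-1.32 ± 0.34, edgeR adjusted p = 0.00911). LYL1, a relative of TAL1, fell from 11.6 to 4.25 CPM (-1.46 ± 0.39, edgeR adjusted p = 0.0109). ZFPM1, the GATA1 cofactor FOG1, fell from 19.4 to 9.43 CPM (edgeR adjusted p = 0.0448), and the corepressor CBFA2T3 rose from 10.1 to 25.2 CPM (edgeR adjusted p = 0.0179). With gestational age as a covariate none of these 4 passed. The ZFPM1 call was lost under 11 of 18 alternatives, among them median-ratio scaling, no filter and sex as a covariate, and that of CBFA2T3 also without lamb 032. With budesonide against surfactant 2 were higher and 0 lower, against 4.01% and 7.85% of all genes. FOXO3, which acts in late erythroid maturation among many other settings, rose from 42.2 to 78.4 CPM (0.89 ± 0.21, edgeR adjusted p = 0.0187), and KLF3, a target of KLF1, rose from 95.2 to 152 CPM (0.68 ± 0.17, edgeR adjusted p = 0.0231). The FOXO3 call was lost without lamb 049 or 048 and the KLF3 call without 049, 031 or 048 or when the 2 groups were fitted alone.

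In the erythropoietin signalling list, which holds kinases and regulators that many cell types use, 6 of 12 genes were higher and 2 lower with surfactant than without ventilation, against 21.6% and 19.5% of all genes. In the same comparison 10 of 16 neutrophil and myeloid markers were higher and 0 lower. Those markers summed to between 125 and 212 CPM in unventilated, 272 and 468 CPM in surfactant and 123 and 200 CPM in budesonide livers, and their part in the signalling genes was not tested. Gene by gene, 4 of the 16 were higher with budesonide than without ventilation and 1 lower (23.3% and 23.7% of all genes). LYN, a tyrosine kinase of blood cells, rose from 31.9 to 77.7 CPM (1.29 ± 0.21, edgeR adjusted p = 0.00066). PIM1, a kinase gene induced through STAT5, rose from 21.8 to 112 CPM (2.36 ± 0.43, edgeR adjusted p = 0.00124) and SOCS2, a feedback inhibitor of cytokine receptors, from 35 to 107 CPM (1.61 ± 0.36, edgeR adjusted p = 0.00381). STAT5B and JAK2, which carry the signal from EPOR, rose by 1.00 ± 0.20 and 0.98 ± 0.20 (edgeR adjusted p = 0.00199 and 0.00235). Of these 5, only SOCS2 passed with gestational age as a covariate. None of the 10 higher neutrophil and myeloid markers did. With budesonide against no ventilation 3 of the 12 were higher and 4 lower (23.3% and 23.7% of all genes). The higher ones were LYN, PIM1 and JAK2 (1.11, 2.14 and 0.56), and none of these passed with gestational age as a covariate. With budesonide against surfactant 0 of 12 were higher and 2 lower, against 4.01% and 7.85% of all genes: KIT, the stem cell factor receptor of early erythroid progenitors, fell from 32.5 to 13.7 CPM (-1.25 ± 0.24, edgeR adjusted p = 0.00735), and its ligand KITLG fell from 11.4 to 5.51 CPM (-1.05 ± 0.31, edgeR adjusted p = 0.0436). The KIT call held under all 18 alternatives run, and that of KITLG was lost under 12 of them. KIT had a correlation of only 0.26 with the erythroid mean. The list's median correlation was 0.35.

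The late erythroid and reticulocyte list had 8 of 21 genes higher and 3 lower with budesonide than without ventilation, against 23.3% and 23.7% of all genes. BNIP3L, which removes mitochondria from reticulocytes, rose from 16.3 to 35.9 CPM (1.14 ± 0.16, edgeR adjusted p = 0.000111) under all alternatives run. SELENBP1 fell from 41.4 to 7.73 CPM (-2.42 ± 0.23, edgeR adjusted p = 1.23e-05), also under all. Which cells of the liver carried the changes of BNIP3L and SELENBP1 was not tested. With gestational age as a covariate the other 7 genes that were higher, DCAF12, MKRN1, RNF10, SLC6A9, TRIM10, UBE2O and YPEL4, and the other 2 that were lower, GMPR and PKLR, did not pass. These groups shared only the age of 127 days, in 057 and 058 against 054, so this loss does not single out these genes. With surfactant against no ventilation 1 of the 21 was higher and 3 lower (21.6% and 19.5% of all genes). The higher one was BNIP3L (1.32, edgeR adjusted p = 8.28e-05), and SELENBP1 was among the lower (-1.19, edgeR adjusted p = 0.0014). With budesonide against surfactant, 2 of the 21 were higher and 1 lower (4.01% and 7.85% of all genes), and BNIP3L was not called. XPO7, an exportin of maturing red cells, rose from 200 to 617 CPM (1.62 ± 0.36, edgeR adjusted p = 0.0148), a call lost without lamb 049. TRIM10 rose from 193 to 527 CPM (1.45 ± 0.44, edgeR adjusted p = 0.0485), with a correlation of 0.98 with the erythroid mean and a call that was lost under 14 of 18 alternatives. SELENBP1 fell here too, from 18.1 to 7.73 CPM (edgeR adjusted p = 0.00669).

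Among 18 other genes of the red cell membrane and skeleton, 0 were higher and 3 lower with budesonide than with surfactant, against 4.01% and 7.85% of all genes. SLC29A1, a nucleoside transporter, fell from 154 to 58 CPM (-1.41 ± 0.18, edgeR adjusted p = 0.00105), with a correlation of -0.10 with the erythroid mean, and this call held under all 18 alternatives. AQP1 and TSPAN33 fell by 1.33 and 1.34 on the log2 scale (edgeR adjusted p = 0.0463 and 0.0492), calls that were lost under 15 and 11 alternatives. With surfactant against no ventilation 2 were higher and 1 lower (21.6% and 19.5% of all genes), and with budesonide against no ventilation 3 were higher and 3 lower (23.3% and 23.7%). Between budesonide and no ventilation AQP3, TSPAN33 and SLC29A1 were lower (-2.92, -2.22 and -1.51), calls that held under all 18 alternatives. The higher ones, CD44, EPB41 and TMOD1, did not pass with gestational age as a covariate. SPTB, the spectrin chain that ankyrin binds, was not called in any comparison, and followed the erythroid mean with a correlation of 0.97. In the list of transferrin iron uptake, 1 of 9 genes was higher and 2 lower with budesonide than with surfactant (4.01% and 7.85% of all genes), and 3 were higher and 1 lower with surfactant than without ventilation (21.6% and 19.5%). The latter was ACO1, the iron regulatory aconitase, which fell from 129 to 57.4 CPM (-1.17 ± 0.16, edgeR adjusted p = 0.000165) under all alternatives run and had a correlation of -0.67 with the erythroid mean. The transferrin receptor TFRC had a correlation of 0.83 and was not called.

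In white matter the erythroid genes were far lower in the same animals. Each of the 9 was higher in liver than in white matter in 11 of 11 animals, with ratios of mean CPM from 4.64 for ANK1 and 36.9 for EPOR to 703 for SLC4A1 and 923 for HEMGN. ANK1, which neurons also express, kept a mean of 25.2 CPM there. GATA1 had 13 counts over the 12 white matter libraries together, and GATA1 and HEMGN did not pass the filter. ALAS2 in white matter was 2.02, 3.59, 0.501 and 0.929 CPM in unventilated lambs 057, 058, 060 and 061. It was 0.607, 2.27, 7.48 and 0.999 CPM in the surfactant lambs and 3.43, 4.29, 1.85 and 14.1 CPM in the budesonide lambs. Lamb 054 was the highest for ALAS2 in both tissues. Of the 7 genes tested in white matter none passed by edgeR in any comparison, where 2.05% of all genes passed between surfactant and unventilated, 0.978% between budesonide and surfactant and 8.06% between budesonide and unventilated lambs, and DESeq2 called 0 against 4.17%, 2.84% and 10.2%. Counts at an unadjusted p under 0.05 were 0, 1 and 1, both for ANK1, which was 0.35 higher on the log2 scale with budesonide than with surfactant (edgeR adjusted p = 0.166).

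The liver change minus the white matter change was tested for the 9 genes in 1 fit of both tissues. By edgeR 0 of 9 passed in any comparison, where 25.8% of all genes passed for surfactant against unventilated, 3.41% for budesonide against surfactant and 29.7% for budesonide against unventilated, and 0 had an unadjusted p under 0.05. With the animal as a replicate block, which rests on the 11 animals with both tissues and so omits the liver of 059 and the white matter of 061, KLF1 at -1.67 ± 0.52 and EPB42 at -1.14 ± 0.36 passed for surfactant against unventilated (edgeR adjusted p = 0.0407 and 0.0404, against 18.6% of all genes). In the same 11 animals without the block, an alternative added after the data were seen, the values were -1.54 ± 0.69 and -1.11 ± 0.58 (edgeR adjusted p = 0.12 and 0.188), and 0 of 9 passed in any comparison. White matter counts per library were few, 2 to 18 for KLF1 and 8 to 26 for EPB42. GATA1 and HEMGN, also among the 9, had not passed the white matter filter.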

How the data were processed

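Per the labels, RNA was extracted with Trizol, selected for poly-A and sequenced as paired 75 bp reads. The authors deposited gene counts in whole numbers, made with Bowtie2 and featureCounts and used with edgeR, per the submitters' processing notes. Versions and genome build are not given in the sources used here. Dates stood in place of 23 symbols.

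Counts were fitted in R 4.3.3 with edgeR 4.0.16 (filterByExpr, trimmed mean of M values, robust quasi-likelihood, the 3 groups in 1 model per tissue), with Benjamini-Hochberg adjustment over all genes tested and a threshold of 0.05. SE is the absolute log2 change over the square root of F. A prior count of 2 entered the log2 CPM of each library. The fit was tested on simulated data. Alternatives were DESeq2 1.42.0, median-ratio scaling, no filter, fits of 2 groups alone, gestational age or sex as a covariate, and leaving out each lamb.

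The members and the 17 lists (283 genes, 243 found, 7 of them through the reference) were chosen with earlier results of these data known. All 9 members and the 12 most similar genes are named. Called genes are named for some lists and comparisons only, and no gene of the cell type lists is named as called. SPTB, TFRC, CD34, JAK2 and SOCS2 were picked from their lists after values were seen. Liver and white matter were paired by animal number: after removal of group means, 11 same-animal pairs correlated at 0.0795 to 0.251 (median 0.132).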

Additional observations from a re-analysis of the deposited data

Results flagged for a closer look

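Over 54 groups of 4 libraries (9 genes, 3 groups, 2 tissues), 2 held a library far from the others by Dixon's criterion, both for GATA1 in white matter, and chance flags about 1 in 20 groups. Unventilated lamb 057 had 0.43 CPM of GATA1, where the other 3 had 0 to 0.0642 CPM. Surfactant lamb 049 had 0.202 CPM, where the other 3 had 0, so any count there would have been flagged. These are 7 and 3 counts, for which the rate of 1 in 20 does not hold. In the liver 0 groups held such a library, lamb 059 included.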

How the results depend on the processing

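The 9 erythroid genes, 3 liver comparisons and 18 alternatives gave 162 values per comparison. For budesonide minus surfactant 153 kept their direction and side of the threshold, 8 gained a call and 1 reversed. For budesonide minus unventilated these counts were 153, 2 and 7, and for surfactant minus unventilated 155, 1 and 6. Counts of genes called, 0 in each comparison, ran from 0 to 1 for surfactant minus unventilated, 0 to 3 for budesonide minus surfactant and 0 to 2 for budesonide minus unventilated when single lambs were left out, and DESeq2 called 3 for budesonide minus surfactant. With the animal as a replicate block, in the 11 animals with both tissues, 2 tissue differences passed, against 0 in the same animals without the block and 0 in all 24 libraries. The block changed no other call among the tissue differences of the 9 genes.

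Leaving out single lambs moved the surfactant minus unventilated log2 change of ALAS2 between -0.65 and 0.10, EPOR between -0.71 and 0.04, SLC4A1 between -0.45 and 0.35 and EPB42 between -0.74 and 0.01, where SLC4A1 was at 0.07 without 007 and 0.16 with sex as a covariate (060 taken as female, as in its white matter label). For AHSP the budesonide minus surfactant change ran from -0.16 (without 054) to 0.73. Its budesonide minus unventilated change ran from -0.67 to 0.30 (without 058), with 0.07 without 031, 0.11 without 050 and 0.05 with sex as a covariate. For ANK1 that change ran from -0.12 (without 059) to 0.44, with -0.05 without 048 and -0.16 with gestational age as a covariate. The cause was not tested. Groups of 4 with this spread give SE of 0.33 to 0.55 for budesonide minus surfactant. Even the largest fitted change there, 1.34 for EPOR, did not pass, so differences well above the SE could be missed. Unventilated and ventilated lambs shared only the age of 127 days, in 057 and 058 against 007 and 054. Gestational age and ventilation can therefore hardly be told apart.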
